A study of Saccharomyces cerevisiae with 6 samples.

Results

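The irreversible steps of glycolysis and their regulators were described from RNA sequencing of Saccharomyces cerevisiae, budding yeast, at 4 h in meiosis. The set held 10 genes, chosen by symbol with earlier results of these data in view. HXK2, PFK1, PFK2, CDC19 and PYK2 encode enzymes of the irreversible steps. PFK26, PFK27 and FBP26 encode enzymes that make and remove fructose 2,6-bisphosphate, and GCR1 and GCR2 encode activators of glycolytic genes. Of the 10, 9 had an entry of their own in the table of 6932 entries, and GCR2 was found only in an entry merged with the open reading frame YNL198C. All 10 were among the 6153 entries compared, which were above 0 in all 3 genotypes and reached an FPKM of 1 somewhere. FPKM counts sequenced fragments relative to gene length and to library size.

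There were 6 samples, 2 of each genotype, which were wild type (WT), bas1 mutant and ino4 mutant. The labels give the genotype by these names alone, without strain background, ploidy or allele. All cultures were grown in acetate medium and moved to potassium acetate to sporulate, so every group lacked added glucose. Bas1 is a Myb-related activator of purine and histidine synthesis genes, whereas Ino4 pairs with Ino2 to activate phospholipid synthesis genes. The authors' table holds 1 value per gene and genotype. How far the 2 samples of each genotype differ is therefore unknown, no test was possible, and every difference below lacks a replicate check. As a check of the labels, BAS1 went from 19.4 FPKM in WT to 0.00985 in bas1, and INO4 from 307 to 0.339 in ino4. The median FPKM of the compared entries lay between 53.5 and 53.6 in the 3 genotypes.

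As background, most enzymes of glycolysis work in both directions, but hexokinase, phosphofructokinase and pyruvate kinase catalyse steps that the cell cannot run backwards. Cells that live on acetate make sugar phosphates by gluconeogenesis, which goes around phosphofructokinase with Fbp1 and around pyruvate kinase with Pck1. Fructose 2,6-bisphosphate switches phosphofructokinase on and Fbp1 off. Gcr1 and Gcr2 act with the DNA-binding protein Rap1 at the promoters of many glycolytic genes.

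CDC19 was the member that stood apart, and it did so in bas1. It encodes the main pyruvate kinase of yeast, which makes pyruvate and ATP from phosphoenolpyruvate. Its FPKM was 842 in WT, 869 in ino4 and 237 in bas1. The bas1 value was 3.55-fold below WT and 3.67-fold below ino4, while WT and ino4 lay close together. On the scale of log2(FPKM + 1), on which all differences are given and which understates the change of low genes, CDC19 was at -1.82 for bas1 minus WT and 0.05 for ino4 minus WT. Only 15 of the 6153 entries compared had a more negative difference between bas1 and WT, and the level rank of CDC19 went from 228 in WT and 217 in ino4 to 911 in bas1. The CDC19 entry (sacCer2 chromosome I, 71787 to 73301) is listed at the same position as YAL037C-B, an open reading frame named for the opposite strand. That entry stood at 69.0 FPKM in WT, at 32.4 in bas1 and at 73.4 in ino4, so it was lower in bas1 as well. Strand use in the counting is not given in the sources used here, and reads of the pair cannot be told apart.

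PYK2, the second pyruvate kinase gene, which is known to be repressed by glucose, did not share this pattern. Its entry (chromosome XV, 984939 to 986459) stood at 37.3 FPKM in WT, at 35.9 in bas1 and at 34.5 in ino4. The 3 values lay within 1.08-fold of each other, and the differences from WT were -0.05 in bas1 and -0.11 in ino4. The ratio of CDC19 to PYK2, which does not depend on scaling between genotypes, was 22.5 in WT, 25.2 in ino4 and 6.60 in bas1. PYK2 thus held 4.25% of the summed pyruvate kinase FPKM in WT, 3.82% in ino4 and 13.2% in bas1. No stretch of 30 bases in CDC19 or PYK2, nor in any other member, occurred elsewhere in the R64 reference genome, so reads of the paralogs are distinguishable at that length.

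The phosphofructokinase genes were lower in bas1 by less than CDC19. PFK1 encodes the alpha subunit and PFK2 the beta subunit of the enzyme, which commits fructose 6-phosphate to glycolysis. PFK1 (chromosome VII, 970776 to 973739) stood at 241 FPKM in WT, at 171 in bas1 and at 227 in ino4. PFK2 (chromosome XIII, 671886 to 674765) stood at 232 in WT, at 134 in bas1 and at 223 in ino4. For both subunits bas1 held the lowest value and ino4 lay close to WT. PFK1 was 1.41-fold and PFK2 1.73-fold lower in bas1 than in WT, with log2 differences of -0.49 and -0.79, and neither reached 2-fold. In ino4 the differences from WT were -0.08 and -0.06. The subunit genes were near balance in WT and ino4, with PFK1 to PFK2 ratios of 1.03 and 1.02, and the ratio was 1.27 in bas1.

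HXK2 had the lowest level of the 10 in every genotype. It encodes the hexokinase that predominates on glucose and also takes part in glucose repression. Its FPKM was 8.45 in WT, against 6.20 in bas1 and 7.90 in ino4 (chromosome VII, 23935 to 25395), and 92.96% of the compared entries were above it in WT. The log2 differences from WT were -0.39 in bas1 and -0.09 in ino4, and the latter was 0.03 after quantile normalization. The other sugar kinases were far more abundant. HXK1, the second hexokinase gene, stood at 686 in WT, at 603 in bas1 and at 596 in ino4, which was 81.2, 97.4 and 75.4 times the HXK2 value. GLK1, the glucokinase gene, had 703, 436 and 908 in the same order, and was 2.09-fold lower in bas1 than in ino4. The HXK1 and GLK1 entries are each merged with a neighbouring open reading frame, and that of GLK1 overlaps another entry, so these values are less certain.

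**Figure D1:**
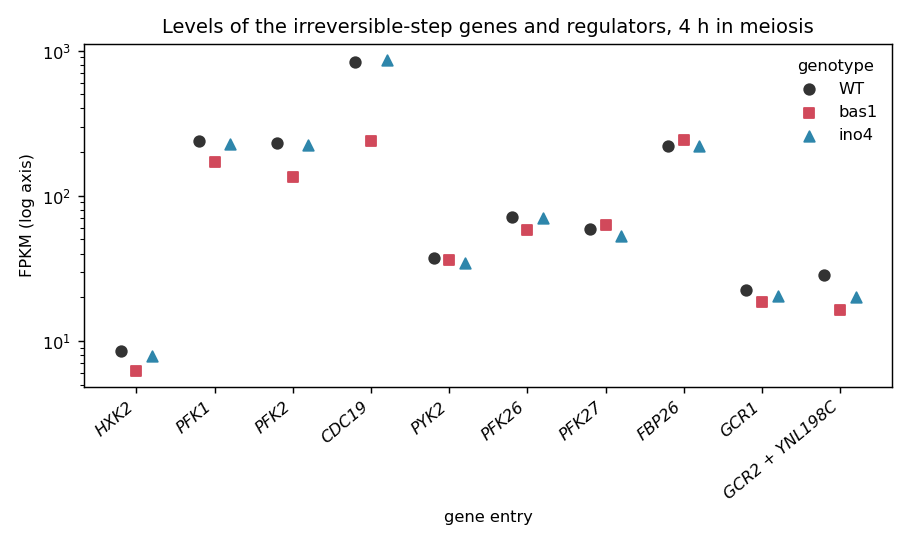
FPKM (log axis) of the 10 member entries in WT, bas1 and ino4, 1 point per genotype, with no error bars because the table holds 1 value each. CDC19 is at 842 in WT, 869 in ino4 and 237 in bas1, while the 3 points of most other genes lie close together.

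The genes that set fructose 2,6-bisphosphate differed little between the genotypes. PFK26 encodes the main 6-phosphofructo-2-kinase, which makes this activator. It stood at 71.3 FPKM in WT, at 57.8 in bas1 and at 70.4 in ino4 (chromosome IX, 163275 to 165758), so the lowest value was again in bas1. PFK27 encodes a second, glucose-induced kinase of this kind and stood at 59.3 in WT, at 62.8 in bas1 and at 52.5 in ino4 (chromosome XV, 67561 to 68754), with bas1 the highest. FBP26, which encodes fructose-2,6-bisphosphatase, the enzyme that removes the activator, stood at 220.2 in WT, at 242 in bas1 and at 219 in ino4 (chromosome X, 129282 to 130640). For PFK26, PFK27 and FBP26 the differences in bas1 were -0.30, 0.08 and 0.14, and in ino4 they were -0.02, -0.17 and -0.01.

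The balance within this group moved by small amounts. PFK26 was 1.20 times PFK27 in WT and 1.34 times in ino4, and in bas1 the ratio was 0.92, so the order of the kinase genes was turned. FBP26 exceeded both kinases together in every genotype, by 1.69 times in WT, 2.01 times in bas1 and 1.78 times in ino4. With CDC19 lower, FBP26 had the highest FPKM of the 10 members in bas1, ahead of CDC19 at 237, while in WT it ranked behind CDC19, PFK1 and PFK2. Whether neighbours in such an order differ beyond the spread of the samples is unknown.

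The activator genes were low in all 3 genotypes. GCR1 encodes the protein that binds DNA at the letters CTTCC, and its entry (chromosome XVI, 412251 to 415359) stood at 22.4 FPKM in WT, at 18.5 in bas1 and at 20.4 in ino4. Both mutants were below WT, with log2 differences of -0.27 in bas1 and -0.13 in ino4. Gcr2 works in a complex with Gcr1. The merged entry of GCR2 and YNL198C (chromosome XIV, 264927 to 266817) stood at 28.5 in WT, at 16.3 in bas1 and at 19.96 in ino4, or 1.75-fold and 1.43-fold below WT. This was the member with the most negative difference from WT in ino4, at -0.49, and it was at -0.77 in bas1. The share of that value due to GCR2 itself cannot be told apart from that of YNL198C, and both comparisons use the same WT value.

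For bas1 against WT, 1 of the 10 members was at least 2-fold lower, CDC19, against 2.34% of all entries compared. None was at least 2-fold higher, against 0.975%. The median difference of the 10 was -0.35, with 8 below and 2 above 0, and the median of all entries was 0.00. For ino4 against WT, 0 members were at least 2-fold lower or higher, against 1.76% and 0.683% of all entries. The median was -0.08, with 9 below 0 and CDC19 above. For bas1 against ino4, CDC19 was again the 1 member at least 2-fold lower and none was higher, against 2.78% of all entries each way, and the median was -0.28. The members were chosen with these differences known, so the counts are a description. At a 1.5-fold rule, PFK2 and the merged GCR2 entry joined CDC19 among those lower in bas1 than in WT, which made 3 of 10 against 7.33% of all entries. Between the mutants PFK2 joined CDC19 at that rule, which made 2 of 10 against 8.22%.

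**Figure D2:**
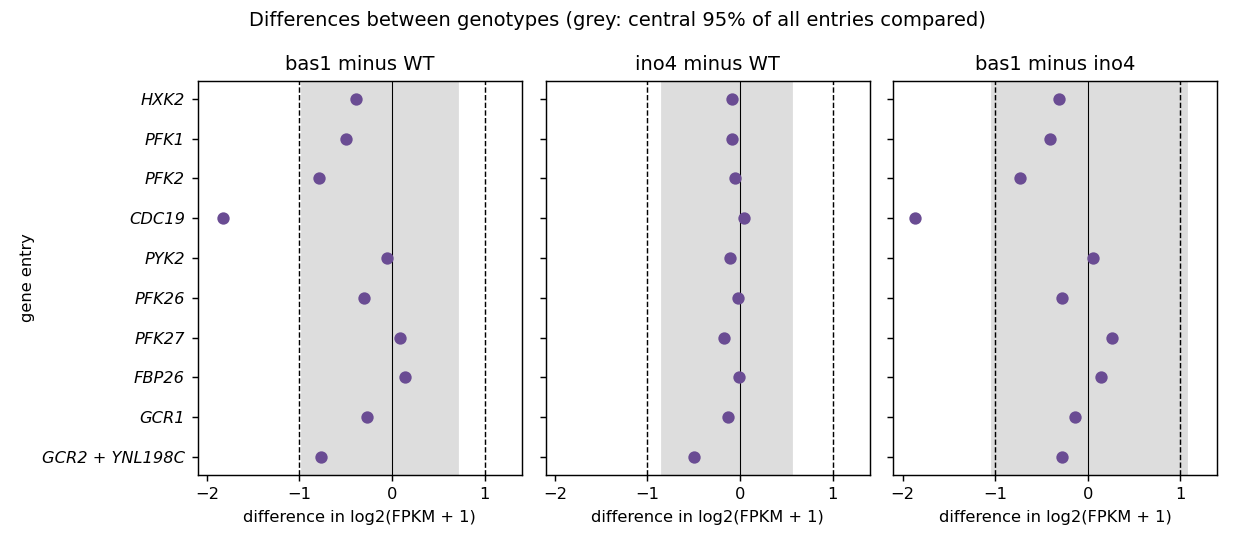
Difference in log2(FPKM + 1) of the 10 member entries for bas1 minus WT, ino4 minus WT and bas1 minus ino4, with the central 95% of all 6153 entries in grey and dashed lines at a 2-fold difference. CDC19 lies outside the band in both comparisons with bas1, at -1.82 and -1.87, and every point for ino4 minus WT is inside it.

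The upstream regions of the members were searched for short letter patterns of factors named above. The windows were the 1000 bases before each start codon in the RefSeq R64 genome, a different build from the sacCer2 positions of the table, and they can reach into neighbouring genes. Both strands were searched in 6015 windows of this length. The Rap1-type letters, CACCC and ACA set 2 bases apart, occurred in 3.56% of all windows and upstream of 3 of the 10 members, CDC19, PFK2 and PFK27. These 3 stretches are shown because they set the member with the largest difference in bas1 beside one with a smaller difference and one with nearly none. They are read 5′ to 3′ on the strand of the gene, with the Rap1-type letters and any CTTCC in capitals.
CDC19: gtaCACCCAGACAtcgggCTTCCacaattt
PFK2: gtcCACCCGTACAtccggaatctgacggca
PFK27: gtcCACCCGTACAcctccctcggaacggaa
The CDC19 stretch lies at chrI:71130-71159 on the plus strand, the PFK2 stretch at chrXIII:675269-675298 on the minus strand and the PFK27 stretch at chrXV:69272-69301 on the minus strand. The Rap1-type letters begin 653, 529 and 544 bases before the start codon. PFK2 and PFK27 hold the same 10 letters, and only in the CDC19 stretch does CTTCC follow within the 30 bases shown, beginning at base 638 before the start codon. The differences of these 3 genes between bas1 and WT were -1.82, -0.79 and 0.08. Of the 10 reversible enzyme genes described below, 3 also had the match, TDH3, GPM1 and ENO1, at -2.39, -2.18 and -2.44. All 10 of those genes, with or without the match, lay between -2.44 and -1.47. Whether the match bears on the differences was not tested. CTTCC alone occurred in 88.5% of all windows and in 8 of the 10 members, all but HXK2 and GCR2.

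The Bas1-type letters TGACTC, which Gcn4 also recognises, occurred in 25.6% of all windows and in 2 of the 10 members, PFK2 and GCR1. They are shown because Bas1 is the factor removed in the bas1 cultures. The stretches are again read on the strand of the gene. The capitals GAGTCA are the letters TGACTC read on the opposite strand.
PFK2: aaaaaaaaaccgGAGTCAttatatacgata
GCR1: tcattatatataGAGTCActgtaataataa
The stretches lie at chrXIII:675367-675396 on the minus strand and chrXVI:411386-411415 on the plus strand, and the matches begin 618 and 856 bases before the start codon. CDC19 had no match in its window. The Ino2-Ino4-type letters CATGTG occurred in 26.1% of windows and in HXK2 and GCR1, whose differences between ino4 and WT were -0.09 and -0.13. Of the 10 reversible enzyme genes, 2 had the Bas1-type match and 5 the Ino2-Ino4-type match. Those 5 lay between -0.77, at TDH1, and -0.07 for ino4 minus WT, and the other reversible genes between -0.21 and 0.18. Whether these matches bear on the differences was not tested. The E-box letters CACGTG occurred in 10.8% of windows and in 4 of the 10 members, CDC19, PYK2, PFK26 and PFK27. A match in letters is a description and does not show that a factor binds there.

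The reversible enzymes of the pathway were lower in bas1 as a group. All 10 of 10 reversible enzyme genes, from PGI1 to ENO2, were at least 2-fold lower in bas1 than in WT, with a median of -1.81 and a range of -2.44 to -1.47, against 2.34% of all entries. ENO1, an enolase gene, stood at 1331 FPKM in WT, at 244 in bas1 and at 1017 in ino4. TDH3, encoding glyceraldehyde-3-phosphate dehydrogenase, had 3536, 674 and 3361. GPM1, encoding phosphoglycerate mutase, had 547, 119.9 and 521. ENO2, the other enolase gene, had 455, 102 and 394. CDC19 lay inside the range of the reversible enzymes, and HXK2, PFK1, PFK2 and PYK2 lay above all of it. Several of these genes have close paralogs or share a position with another entry, so their single values are less certain. In ino4 no reversible enzyme gene was 2-fold apart from WT, and the median was -0.11. Of all entries, 1.76% were lower and 0.683% higher in ino4, so this count of 0 is near the background.

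**Figure D3:**
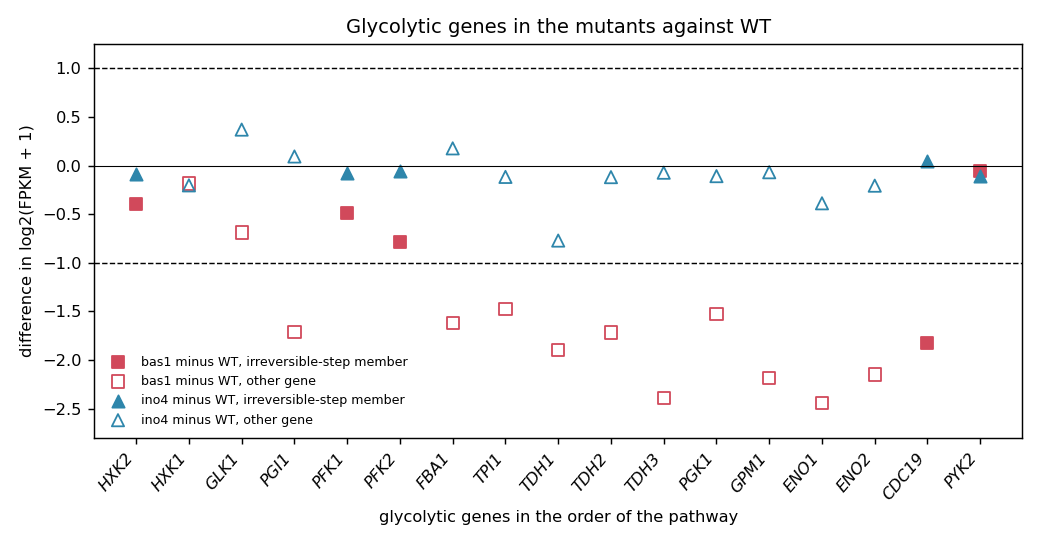
Difference in log2(FPKM + 1) from WT for glycolytic genes in pathway order, with bas1 as squares and ino4 as triangles, members filled, other genes open and dashed lines at a 2-fold difference. In bas1 the reversible enzymes and CDC19 lie between -2.44 and -1.47, while HXK2, PFK1, PFK2 and PYK2 lie between -0.79 and -0.05.

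Most genes after pyruvate kinase were also lower in bas1. Of 5 genes for the steps between pyruvate and ethanol, in either direction, 3 were at least 2-fold lower in bas1 than in WT. This compares with 2.34% of all entries, and the median of the 5 was -1.34. The 3 lower genes were ADH1, PDC1 and ADH2. ADH1, the main alcohol dehydrogenase gene, stood at 872 FPKM in WT and 301 in bas1. PDC1, the main pyruvate decarboxylase gene, had 751 and 297, and ADH2, whose enzyme oxidises ethanol, had 453 and 178. PDC6, a minor decarboxylase gene, stood at 60.1 in WT, at 33.6 in bas1 and at 70.5 in ino4. The alcohol dehydrogenase genes have close paralogs, which makes their values less certain. None of the 5 was 2-fold apart between ino4 and WT, which is near the background of 1.76% of all entries lower and 0.683% higher.

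For the 5 gluconeogenic genes that bypass the irreversible steps, the median differences from WT were 0.25 in bas1 and 0.06 in ino4, with a range of -0.17 to 0.64 in bas1. None was 2-fold apart from WT, where 2.34% of all entries were lower and 0.975% higher in bas1, and 1.76% and 0.683% in ino4, so a count of 0 of 5 is near the background. PCK1, encoding phosphoenolpyruvate carboxykinase, which runs opposite to pyruvate kinase, stood at 1859 FPKM in WT, at 2903 in bas1 and at 1447 in ino4. It was the 1 gene of the list at least 2-fold apart between the mutants, higher in bas1, against 2.78% of all entries. Its difference for bas1 minus ino4 was 1.00, just past the rule. FBP1, encoding fructose-1,6-bisphosphatase, which runs opposite to phosphofructokinase, stood at 121 in WT, at 108 in bas1 and at 127 in ino4.

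Among 4 DNA-binding partners of the activators, none was 2-fold apart in any comparison. Of all entries, between 0.683% and 2.78% were 2-fold apart in each direction of a comparison. Counts of 0 in this and the other short lists below are thus near the background. The largest difference was at TYE7, a helix-loop-helix activator of glycolytic genes, with an FPKM of 100.3 in WT, against 54.5 in bas1 and 81.2 in ino4. RAP1 had 112, 132 and 138. Of 5 glucose signalling genes, 1 was at least 2-fold lower in bas1 than in WT, against 2.34% of all entries. This was MIG1, the repressor with which Hxk2 acts, at 25.2 in WT, against 11.8 in bas1 and 22.8 in ino4. It was 2.14-fold lower in bas1, and its log2 difference of -1.04 was just past the rule. The other 4 lay between -0.40 and 0.07 in bas1. For the trehalose pathway, whose intermediate trehalose 6-phosphate restrains hexokinase, TPS2 stood at 196 in WT, at 134 in bas1 and at 227 in ino4, and neither of the 2 genes was 2-fold apart. Of 4 glycerol branch genes none was 2-fold apart, and GPP2, a glycerol phosphatase gene, had the largest difference, with 375, 473 and 318.

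**Figure D4:**
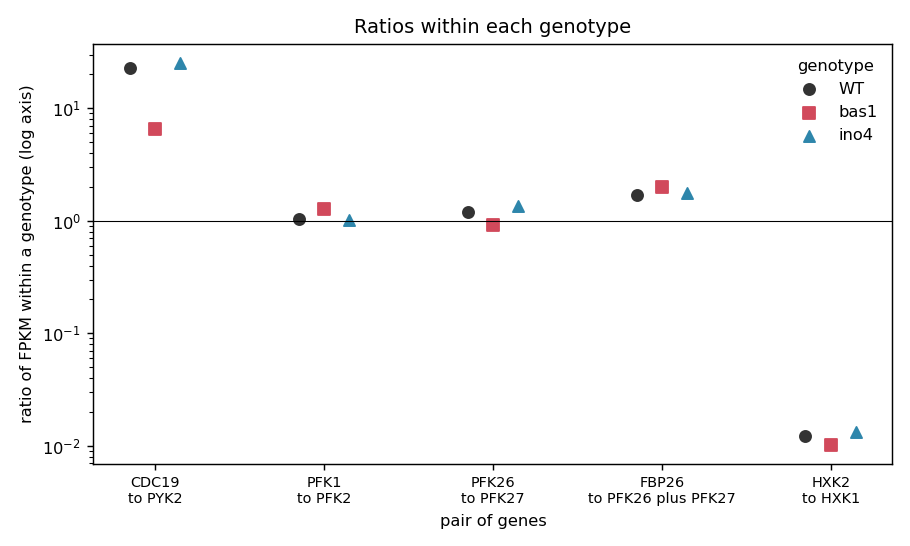
Ratio of FPKM between genes within each genotype (log axis), 1 point per genotype and no error bars. The ratio of CDC19 to PYK2 is 22.5 in WT, 25.2 in ino4 and 6.60 in bas1, and each of the other ratios plotted stays within 1.5-fold between genotypes.

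Stage genes of meiosis were higher than WT in bas1, while in ino4 they lay below WT by mostly smaller amounts. Of 5 middle sporulation genes, NDT80, CDC5, SPS1, SPO21 and SSP1, 4 exceeded WT by at least 2-fold in the bas1 culture, against 0.975% of all entries, and all 5 had a positive difference, from 0.89 to 1.50. In ino4 all 5 lay below WT, from -1.40 at SPS1 to -0.03 at NDT80, which was thus close to WT. SPS1 was 2.70-fold lower, the 1 gene past 2-fold, against 1.76% of all entries. Their summed FPKM was 673 in WT, against 1472 in bas1 and 523 in ino4. What part these genes' difference has in the lower level of CDC19 was not tested. Fewer cells with a transcript and less transcript per cell cannot be told apart in these bulk cultures.

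Among 5816 other entries with an FPKM of at least 5 in every genotype, the 5 nearest to CDC19 by Euclidean distance over the differences of bas1 and ino4 from WT were HPT1, YKL065W-A, PGI1, CWP2 and DDR2. The measure rests on 3 values per gene. HPT1, a purine salvage gene, was closest at a distance of 0.10, with an FPKM of 124 in WT, against 32.8 in bas1 and 121 in ino4. PGI1, the phosphoglucose isomerase gene, was at 0.12, with 251, 76.0 and 268. YKL065W-A, CWP2, a cell wall mannoprotein gene, and DDR2, a stress gene, were at 0.12, 0.17 and 0.18.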

How the data were processed

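The labels' protocols describe hot phenol extraction of total RNA from 6 meiotic cultures and a TruSeq RNA library kit. STAR, Cufflinks and the build sacCer2 come from the submitters' processing notes. The sources used here do not give versions, settings, strand use, read numbers or the way in which the authors joined the 2 samples of each genotype. The authors deposited FPKM values, 1 column per genotype per the file headers. To look for whole reads, FPKM was multiplied by length. With the unit that suited each column best, the share of low values within 0.05 of a whole number was 19.2% (WT), 17.9% (bas1) and 16.8% (ino4), where a fixed unit gives 10% by chance. Reads were not recovered, so the depth is unknown and no intervals are given. An exact 0 can be a failed estimate, and 87 entries at 0 in some genotype were left out.

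Values were compared as log2(FPKM + 1), a pseudocount of 1, with no further scaling. A difference of 1 was the 2-fold rule. The planned limma test needs values per sample and was replaced by this description, as planned for a table of genotype values. The members, the 8 lists of 38 other pathway genes and the rules were chosen with earlier results of these data known. All 38 were found, 2 of them by a RefSeq synonym (GPP1 and GPP2). Genes named were the members, list genes 2-fold apart in any comparison (up to 4 by size, otherwise the largest difference), and the 5 entries nearest to the member farthest from WT. HXK1, FBP1, RAP1, EMI2, TDH1 and YAL037C-B were named outside that rule, after their values were seen. Table starts count from 0 and are printed from 1. Upstream windows came from RefSeq R64 with its own annotation. The log2 difference with its 2-fold rule was tested on simulated shifts larger than the rule. Median and trimmed mean scaling were tested on a column multiplied by a known factor. The other steps were not tested in this way. Python 3.11.15, pandas 2.3.3, numpy 2.4.6 and Biopython 1.88 were used.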

Additional observations from a re-analysis of the deposited data

How the results depend on the processing

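The 10 alternatives were other pseudocounts (0.1 and 5), no filter or an FPKM of at least 5, 3 scalings, a 1.5-fold rule, entries that overlap no other, and leaving out the merged GCR2 entry, the last added after seeing the data. The number of members lower in bas1 than in WT was 1 as reported, 3 with the 1.5-fold rule and 0 among entries that overlap no other. Against ino4 it was 1, 2 and 0. CDC19 shares its position with another entry, so the overlap setting removes it. The median member differences moved by less than 0.1 under all 10. CDC19 stayed between -1.83 and -1.79 for bas1 minus WT where it was kept. No called difference changed sign. Of 294 single-gene values under the alternatives, 286 stayed near the reported value or on its side of the rule, 5 moved by 0.1 or more and 3 passed only the 1.5-fold rule. Only the pseudocounts and the 3 scalings could change a single-gene difference, so under the other settings its size was fixed in advance. The 286 of 294 is thus no measure of stability over all 10 alternatives. The filters and the 1.5-fold rule likewise could not move the medians. No paired analysis was possible because the table holds 1 combined value per genotype, and for the same reason no replicate could be left out. The depth is unknown, so how precise the values of low genes such as HXK2, MIG1 and the activator genes are cannot be given.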

Other observations

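Set side by side within a genotype, transcripts for opposed enzymes gave the following values, in ratios chosen after the values were seen. The summed FPKM of CDC19 and PYK2 was 0.473 of that of PCK1 in WT, 0.625 in ino4 and 0.0940 in bas1. In bas1 PCK1 was thus 10.6 times the pyruvate kinase genes together, against 2.11 times in WT. The summed FPKM of PFK1 and PFK2 was 3.90 times that of FBP1 in WT, 3.55 times in ino4 and 2.83 times in bas1. EMI2, a glucokinase-like gene that is named for early meiotic induction, was higher in bas1, at 561 FPKM against 372 for WT and 397 for ino4, the opposite direction from GLK1.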
